A study of Rattus norvegicus with 9 samples.

Results

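The potassium channel genes, those whose rat symbols start with Kcn, were followed over prostates of sham-operated rats, rats with benign prostatic hyperplasia (BPH) and BPH rats given ghrelin. A gene was taken as a member when the RefSeq accession that the array design gives for a probe led to a Kcn symbol. RefSeq listed 97 such symbols, and 90 of them, with 117 probes, were on the array, out of 26905 genes in all. The 7 without a matched probe included Kcnd2l1, Kcnk16-ps1, Kcnk6-ps1, Kcnk7, Kcnq5 and Kcnu1. The family was divided into the calcium- and sodium-activated channels of the Slo group with their beta subunits, of which the large-conductance BK channel is one (7 genes), the small- and intermediate-conductance SK and IK channels (4), the pore-forming voltage-gated Kv subunits (28), the silent Kv subunits (10), the Kv auxiliary subunits (12), the inward rectifiers or Kir channels (15), the two-pore channels (13) and Kcnrg, a regulator that is no channel (1).

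Male Sprague Dawley rats were 6 weeks old when bought. Sham rats had a sham operation in place of castration, injections of corn oil under the skin and vehicle (distilled water) by gavage. BPH rats were castrated and received dihydrotestosterone under the skin at 3 mg/kg daily for 4 weeks, with vehicle by gavage. BPH+ghrelin rats had the same castration and dihydrotestosterone, and rat ghrelin by mouth at 20 nmol/kg daily during the last 2 weeks, although a legend of the study gives another dose and an injection in place of the oral route. Each group had 3 one-color arrays. The study describes the arrays as made from separate rats, and the labels tie no array to a rat, so the p-values measure the spread between these arrays. Castration and androgen replacement went together in both BPH groups and cannot be told apart here. BPH against sham therefore compares a castrated, androgen-replaced gland with an intact one.

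Potassium channels let potassium leave the cell along its gradient and so set the resting membrane potential. In smooth muscle of the prostate stroma, BK and Kv channels oppose depolarization and calcium entry, and ATP-sensitive Kir channels hyperpolarize the cell when they open. In secretory epithelium, potassium channels keep the driving force for chloride and fluid secretion and recycle the potassium taken up by pumps. Pore-forming subunits assemble as tetramers, or as dimers in two-pore channels, and auxiliary subunits change their gating, surface level or drug response.

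Detection limited what could be followed. A comparison of 6 arrays took in a gene when 3 or more of them read a probe of it well above the local background. By this rule 61 members entered 1 or more comparisons and 29 entered none. A probe was well above background on all 9 arrays for 40 members, and on no array for 16. Of the non-control probes, 61.4% were well above background on sham replicate 2 and 69.5 to 75.1% on the other arrays. The median signal of sham replicate 2, 40.1 intensity units, was the lowest of the 9 (72.9 to 130.4 elsewhere). No spot was saturated. Every group had a middle array, a pattern noticed once the values were known. Sham replicate 3 held the middle rank of its group for 77.1%, BPH replicate 2 for 74.8% and BPH+ghrelin replicate 2 for 72.4% of the 17858 probes well above background on all arrays. Among the 61 potassium channel probes used, these arrays held it for 33, 34 and 37. The estimated spread, and every p-value, rests in part on these 3 arrays, and why they lie there was not tested. The prostate marker Pbsn (16.16 to 16.41 in sham, 13.11 to 14.11 in BPH and 14.35 to 14.46 in BPH+ghrelin, log2 signal) was detected on all arrays. Seminal vesicle and coagulating gland markers were also present, with a mean level over 7 genes of 8.56 to 9.56 in sham, 4.55 to 7.34 in BPH and 4.12 to 5.88 in BPH+ghrelin, and the part of this in the differences below was not tested.

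In BPH against sham, 1 of 60 members tested passed the test (adjusted p under 0.05, limma on quantile-normalized log2 signal, Benjamini-Hochberg over all genes), which is 1.67% beside 4.33% of all 19552 genes tested. It was Kcnip3, which fell. In BPH+ghrelin against BPH, 5 of 61 passed, or 8.2%, beside 1.48% of 19749 genes. Kcnip3 and Kcnmb4 rose, and Kcnn4, Kcnq1 and Kcns3 fell. In BPH+ghrelin against sham, 3 of 55 passed, or 5.45%, beside 6.3% of 19197 genes: Kcna7 rose, and Kcnq1 and Kcnj8 fell. The 3 comparisons share arrays, so they are no independent evidence of each other. In tissue samples, fewer cells of a type and less RNA per cell cannot be told apart. An exact permutation test of 3 arrays against 3 cannot go below p = 0.1, so it was of no use for single genes.

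A 2-fold difference without regard to the test was reached by 2 members higher in BPH than in sham (Kcnn4 and Kcnt2) beside 3.53% of all genes, and by 7 lower (Kcnk4, Kcnj1, Kcnv1, Kcne5, Kcns2, Kcne2 and Kcnd2) beside 4.63%. With ghrelin against BPH, 5 were higher (Kcnk4, Kcnj1, Kcnv1, Kcnip3 and Kcns2) beside 2.9% of all genes, and 4 were lower (Kcnn4, Kcnt2, Kcnq1 and Kcne3) beside 3.2%. Kcne3 was well above background in BPH alone, and the bound for it given below is under 2-fold. Against sham, none was higher with ghrelin beside 3.21% of all genes, and 3 were lower (Kcne5, Kcnq1 and Kcnj8) beside 4.2%. The arrays of the groups did not overlap for 23 members in BPH against sham, which is 38.3% beside 31.3% of all genes, and for 23 in BPH+ghrelin against BPH, which is 37.7% beside 39.2%. They did not overlap for 19 in BPH+ghrelin against sham, or 34.5% beside 30.4%. Both counts of 23 include Kcne3. The second also includes a two-pore gene that was well above background on all BPH arrays and on no ghrelin array. An unadjusted p under 0.05 was found for 18, 18 and 16 members, or 30.0%, 29.5% and 29.1%, beside 26.5%, 21.1% and 23.7% of all genes. Kcne3 is among those of BPH+ghrelin against BPH. The median log2 difference of the members was -0.02, -0.01 and -0.13 in the order named, beside 0.04, 0.02 and 0.04 over all genes tested. The family as a whole was therefore spread to both sides of 0 in each comparison, with 27 members higher and 33 lower, 30 and 31, and 25 and 30.

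**Figure D1:**
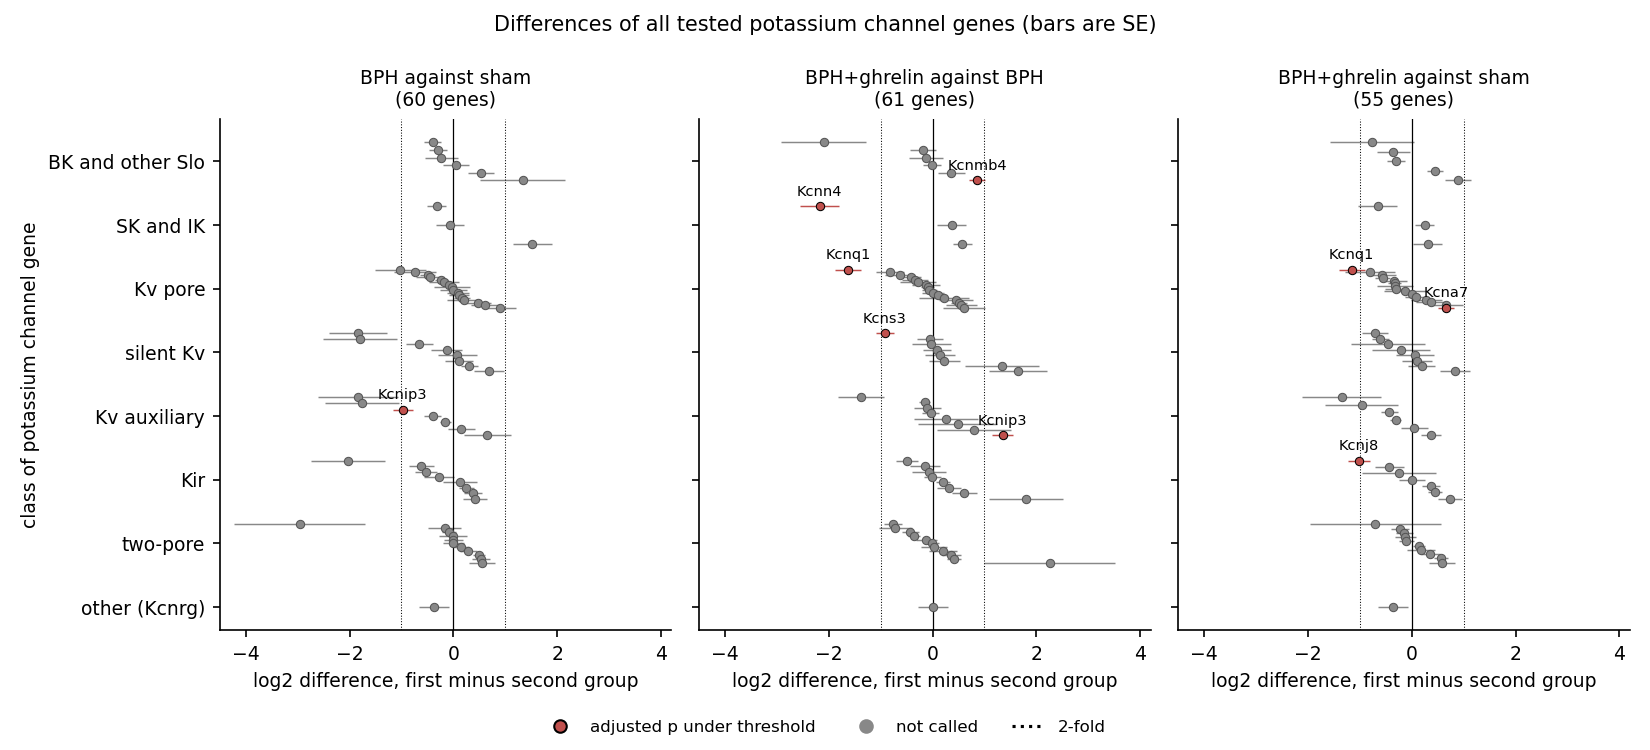
Log2 differences (points, horizontal axis) with their SE (bars) of all tested potassium channel genes, by class (vertical axis), in the 3 comparisons. Red points passed the test: 1, 5 and 3 genes; dotted lines mark 2-fold, and every class with more than 1 gene has points on both sides of 0 in all 3 comparisons.

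RefSeq promoter windows of GRCr8 were at hand for 61 of the 90 members and for 4 of the 7 that passed a test in any comparison. They are shown because the groups differ in androgen supply, and each was searched for the androgen receptor hexamer AGAACA, the GC box GGGCGG and the TATA box TATAAA on both strands. Each window holds the 250 bases before the transcription start, 5′ to 3′ on the strand of the gene, and capitals mark every match. All 4 genes are on the minus strand: Kcnmb4 at chr7:54005102-54005351, Kcnip3 at chr3:135195411-135195660, Kcnj8 at chr4:177246549-177246798, and Kcns3 with 2 start sites, at chr6:39584106-39584355 and chr6:39583395-39583644.
Kcnmb4: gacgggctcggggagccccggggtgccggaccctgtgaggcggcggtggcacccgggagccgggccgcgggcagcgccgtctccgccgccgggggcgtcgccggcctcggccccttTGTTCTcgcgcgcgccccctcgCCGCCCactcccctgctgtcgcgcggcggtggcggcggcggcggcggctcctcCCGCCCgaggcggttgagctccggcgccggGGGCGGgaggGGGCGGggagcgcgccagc
Kcnip3: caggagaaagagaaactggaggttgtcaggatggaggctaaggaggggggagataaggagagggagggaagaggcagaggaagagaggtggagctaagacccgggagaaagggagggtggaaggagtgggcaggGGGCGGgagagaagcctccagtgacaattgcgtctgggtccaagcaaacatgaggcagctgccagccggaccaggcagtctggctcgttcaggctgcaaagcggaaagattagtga
Kcnj8: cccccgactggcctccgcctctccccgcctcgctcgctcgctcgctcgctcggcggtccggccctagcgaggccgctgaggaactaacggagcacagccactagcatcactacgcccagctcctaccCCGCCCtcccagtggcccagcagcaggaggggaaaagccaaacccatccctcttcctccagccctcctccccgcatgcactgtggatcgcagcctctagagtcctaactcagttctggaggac
Kcns3, first window: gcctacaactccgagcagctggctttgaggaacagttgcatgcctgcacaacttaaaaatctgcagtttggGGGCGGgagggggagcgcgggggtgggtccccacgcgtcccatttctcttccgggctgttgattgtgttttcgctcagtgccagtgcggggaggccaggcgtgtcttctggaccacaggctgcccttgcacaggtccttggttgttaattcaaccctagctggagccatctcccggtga
Kcns3, second window: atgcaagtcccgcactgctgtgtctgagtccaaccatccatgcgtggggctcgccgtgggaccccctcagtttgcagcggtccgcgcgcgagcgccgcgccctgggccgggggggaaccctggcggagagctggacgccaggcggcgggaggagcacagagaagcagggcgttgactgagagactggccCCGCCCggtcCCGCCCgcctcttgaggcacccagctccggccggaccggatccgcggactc

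The hexamer was found once, in Kcnmb4, 134 bases before the start, in the orientation TGTTCT. It was present in 17.5% of all 33469 windows and in 9 of the 61 members with a window. GC boxes were found 4 times in Kcnmb4, at 112, 59, 29 and 19 bases before the start, once in Kcnip3 at 116, once in Kcnj8 at 123, and in Kcns3 at 179 in the first window and at 61 and 51 in the second. A GC box was present in 30.5% of all windows and in 31 of the 61 members. None of these windows held TATAAA or TTTATA, which were in 12.9% of all windows and in 2 of the 61 members. These are matches of letters, not sites shown to bind a factor.

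The BK channel, built from Kcnma1, relaxes smooth muscle when calcium rises, and its beta subunits set how much calcium it needs. Of this class 6 genes were tested in BPH against sham and in BPH+ghrelin against BPH, and 1 passed a test. Kcnmb4, the beta-4 subunit that makes BK channels slow and resistant to iberiotoxin, had log2 signals of 9.59, 10.07 and 9.79 in sham (replicates 1 to 3), 9.32, 9.38 and 9.54 in BPH, and 10.42, 10.27 and 10.13 in BPH+ghrelin. All 3 ghrelin arrays lay above all 6 others, and the BPH arrays lay below all sham arrays. Kcnmb4 rose 1.81-fold with ghrelin against BPH (log2 difference 0.86, SE 0.16, n = 3 and 3, adjusted p = 0.0429). It was 0.40 lower in BPH than in sham (SE 0.16, adjusted p = 0.154) and 0.46 higher with ghrelin than in sham (SE 0.15, adjusted p = 0.120), and neither difference passed. The 6 fits that each left out 1 array of this pair of groups gave 0.78 to 0.93, none of them past the threshold. With the scan time given in the array headers as a block, the difference was 1.00 (adjusted p = 0.279). For BPH+ghrelin against BPH that fit rests on the 1 scan time that both share, with 1 ghrelin array and 3 BPH arrays, and against sham on 2 arrays of each. It called 2 of all 19749 genes in the first comparison and 84 of 19197 in the second. BPH and sham shared no scan time. Their difference in that fit is linked through the BPH+ghrelin arrays, of which only replicate 1 shared a scan time with BPH.

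The pore gene Kcnma1 had 3 detected probes that did not move together. The brightest read 6.13, 7.02 and 6.42 in sham, 6.90, 7.03 and 7.22 in BPH, and 7.09, 7.40 and 7.75 in BPH+ghrelin. Its ghrelin arrays lay above the sham arrays, with a difference of 0.89 (SE 0.25, adjusted p = 0.0773). The second probe differed by -0.035, 0.001 and -0.034 in the 3 comparisons. The third read 5.16, 5.16 and 5.14 in BPH and 4.28, 4.58 and 4.57 in BPH+ghrelin, a difference of -0.68 (SE 0.18, adjusted p = 0.0958, adjusted over all probes). For BPH+ghrelin against BPH the brightest probe read 0.36 the other way (adjusted p = 0.439), or 0.037 with scan time as a block. Kcnma1 is known for its many splice forms, and which of them these probes read was not tested.

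Of the other beta subunits, Kcnmb1, the smooth muscle form, was well above background on 4 of 9 arrays and differed by 0.04 in BPH against sham and -0.18 with ghrelin against BPH. Kcnmb2, which gives BK currents inactivation, differed by -0.29, -0.01 and -0.30 at its brightest probe. Its other probe read 0.82 for BPH+ghrelin against BPH (adjusted p = 0.122). Kcnmb3 differed by -0.23, -0.13 and -0.36, the first of which turned to 0.62 with scan time as a block. No difference of these 3 genes passed the test. Kcnt2, a sodium-activated channel, had 4.42, 1.13 and 4.41 in sham, 4.73, 4.55 and 4.69 in BPH, and 2.51, 3.25 and 1.91 in BPH+ghrelin. It was low in all ghrelin arrays and in sham replicate 2 alone among the rest, and was well above background on 2 sham, 3 BPH and 1 of the ghrelin arrays. Its differences of 1.34 in BPH against sham (SE 0.82, adjusted p = 0.323) and -2.10 with ghrelin against BPH (SE 0.82, adjusted p = 0.197) did not pass, and the first was 0.24 without sham replicate 2.

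Among the calcium-activated SK and IK channels, Kcnn4 stood out. It encodes the intermediate-conductance IK channel of secretory epithelium, red cells and activated lymphocytes. Its log2 signals were 5.11, 3.80 and 4.42 in sham, 5.48, 6.05 and 6.35 in BPH, and 4.06, 4.04 and 3.26 in BPH+ghrelin. All BPH arrays were above all others, while the sham and ghrelin arrays overlapped. In sham and in BPH+ghrelin 2 of 3 arrays were well above background. Kcnn4 fell with ghrelin against BPH by 2.18 on the log2 scale (SE 0.38, adjusted p = 0.0390), or 4.52-fold. In BPH it was 2.87-fold higher than in sham (1.52, SE 0.38, adjusted p = 0.0613), which did not pass. Without 1 array at a time the ghrelin difference was -2.40 to -1.91 and passed in 0 of 6 fits, and with scan time as a block it was -1.91 (adjusted p = 0.392). Immune cell markers, a mean over 8 genes, were at 5.90 to 6.19 in sham, 4.80 to 5.69 in BPH and 4.38 to 4.69 in BPH+ghrelin, with Cd52 taking a large part in that order (12.20 to 14.62, 4.74 to 9.74 and 4.05 to 5.70). Ptprc, the pan-leukocyte marker, read 8.43 to 8.61, 8.34 to 8.71 and 7.62 to 7.83, and it fell with ghrelin against BPH (-0.82, adjusted p = 0.0368), as Kcnn4 did. Secretory epithelium markers, over 8 genes, were at 12.32 to 12.39, 10.09 to 11.42 and 10.36 to 11.16. The part of either cell type in the values of Kcnn4 was not tested. Kcnn3, an SK channel, read 6.24, 6.53 and 6.54 in sham, 6.10, 6.03 and 6.21 in BPH, and 6.30, 6.85 and 6.90 in BPH+ghrelin. Its ghrelin arrays lay above its BPH arrays, by 0.57 (SE 0.18, adjusted p = 0.142), or 0.19 with scan time as a block. Kcnn1 differed by -0.06, 0.37 and 0.30. Kcnn2 was well above background on sham replicate 2 alone, at 5.32, with the other 8 arrays at 0.53 to 0.61, and was not tested.

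Of 28 pore-forming Kv genes, 16 were tested and 2 passed a test, Kcnq1 and Kcna7. Kcnq1, which forms the KCNQ1 channel of heart and epithelia with KCNE subunits, read 7.89, 7.68 and 7.93 in sham, 8.24, 8.28 and 8.40 in BPH, and 7.14, 6.81 and 6.07 in BPH+ghrelin at its brightest probe. All ghrelin arrays were below all others, and all BPH arrays were above all sham arrays. It fell 3.10-fold with ghrelin against BPH (-1.63, SE 0.25, adjusted p = 0.0298) and 2.23-fold against sham (-1.16, SE 0.25, adjusted p = 0.0359). BPH was 0.47 above sham (SE 0.25, adjusted p = 0.260), which turned to -0.18 with scan time as a block. Leaving out 1 array at a time gave -1.86 to -1.32, past the threshold only without BPH+ghrelin replicate 1 or 3, and -1.39 to -0.85, past it only without BPH+ghrelin replicate 1, BPH+ghrelin replicate 3 or sham replicate 2. In that fit the 2 ghrelin differences were -1.16 (adjusted p = 0.314) and -1.34 (adjusted p = 0.133).

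A second Kcnq1 probe, also well above background on all 9 arrays, did not follow. It read 6.15, 6.43 and 6.25 in sham, 5.89, 5.92 and 6.08 in BPH, and 5.97, 6.06 and 6.18 in BPH+ghrelin. Its ghrelin and BPH arrays overlapped, with a difference of 0.11 (SE 0.13, adjusted p = 0.665). Its ghrelin and sham arrays overlapped as well, with a difference of -0.20 (adjusted p = 0.382). The mean of both probes fell by 0.76 against BPH (adjusted p = 0.0439) and by 0.68 against sham (adjusted p = 0.0301). Thus the fall of Kcnq1 was read by 1 of its 2 probes.

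Kcna7, a shaker-type Kv channel known from skeletal muscle and heart, read 5.16, 5.69 and 5.27 in sham, 5.58, 5.51 and 5.51 in BPH, and 5.92, 6.11 and 6.09 in BPH+ghrelin. The ghrelin arrays were above all others, and sham and BPH overlapped. It rose 1.59-fold with ghrelin against sham (0.67, SE 0.16, adjusted p = 0.0453). The difference from BPH was 0.51 (SE 0.16, adjusted p = 0.133). The first value ran from 0.56 to 0.83 without 1 array at a time, past the threshold only without sham replicate 2, and was 0.67 with scan time as a block (adjusted p = 0.274). Striated muscle markers, over 7 genes, were at 5.19 to 6.21 in sham and 5.14 to 5.28 in BPH+ghrelin, with 2 of 6 tested genes higher and 4 lower, and their part in the values of Kcna7 was not tested.

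Kcnh2, the hERG channel, was 0.46 higher with ghrelin than in BPH (SE 0.33, adjusted p = 0.445). Kcnd2, a transient Kv4 channel, read 5.23, 7.44 and 6.01 in sham, 5.31, 5.25 and 5.06 in BPH, and 5.03, 5.55 and 5.71 in BPH+ghrelin. Sham replicate 2 was far above the rest, and the difference of -1.02 from sham to BPH (SE 0.49, adjusted p = 0.221) did not pass. It was -0.42 without sham replicate 2, -1.52 without sham replicate 1, where it passed (adjusted p = 0.0450), and -0.53 with scan time as a block. Kcna5, the Kv1.5 channel of vascular muscle, and Kcnc1 were well above background on no array, Kcna1 on 2, Kcna2 on 1 and Kcnd3 on 2, and none of them was tested.

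Silent Kv subunits form no channel alone but change the Kv channels they join, and 8 of 10 were tested. Kcns3, one of them, read 5.48, 5.18 and 5.33 in sham, 5.89, 5.71 and 5.32 in BPH, and 4.77, 4.77 and 4.63 in BPH+ghrelin. All ghrelin arrays were below all others, and sham and BPH overlapped. It fell 1.89-fold with ghrelin against BPH (-0.92, SE 0.17, adjusted p = 0.0430) and was 0.61 lower than in sham (SE 0.17, adjusted p = 0.0706). The fits without 1 array gave -1.07 to -0.79, past the threshold only without BPH replicate 3, and scan time as a block gave -0.87 (adjusted p = 0.396). Kcnv1 read 5.01, 5.45 and 5.56 in sham, 2.57, 3.65 and 4.27 in BPH, and 3.96, 5.77 and 5.67 in BPH+ghrelin. BPH lay below sham without overlap, by 1.85 (SE 0.56, adjusted p = 0.0953), but with scan time as a block that difference was 0.02 (SE 0.80). Ghrelin against BPH was 1.64 (SE 0.56, adjusted p = 0.159), with overlap. Kcng1, named here after its values were seen, had a main probe with differences of 0.11, 0.08 and 0.19. Its dimmer probe read 4.36, 5.19 and 5.05 in sham, 3.73, 2.65 and 3.09 in BPH, and 3.60, 3.25 and 3.65 in BPH+ghrelin. When all probes were tested, this probe fell by 1.71 in BPH (SE 0.31, adjusted p = 0.0283) and by 1.37 with ghrelin, both against sham (SE 0.31, adjusted p = 0.0434).

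**Figure D2:**
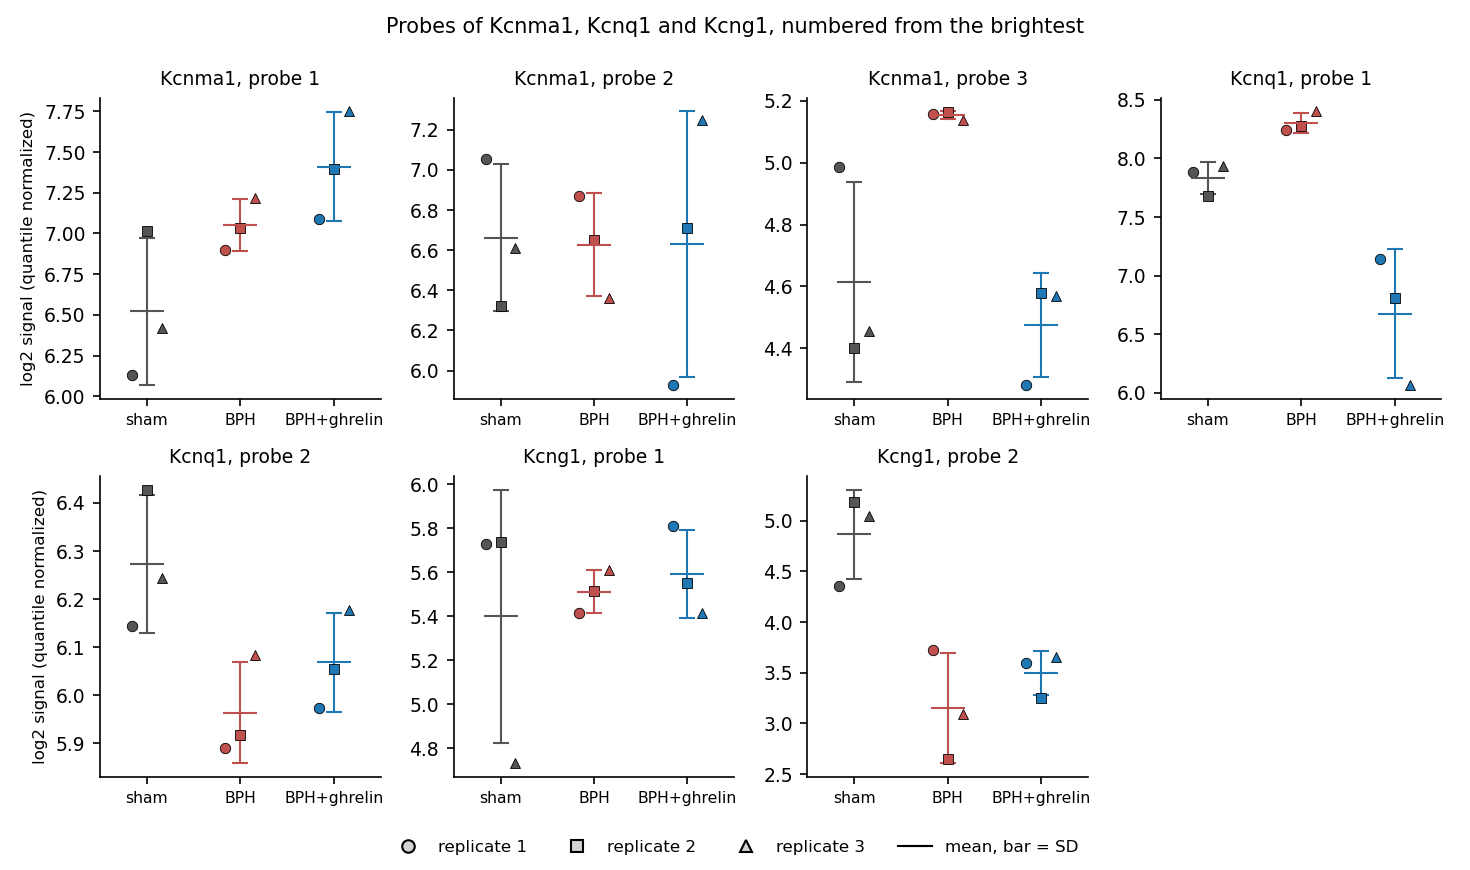
Log2 signal (vertical axis) of the detected probes of Kcnma1 (3), Kcnq1 (2) and Kcng1 (2) in sham, BPH and BPH+ghrelin; points are arrays, lines are means with SD (n = 3). The probes of 1 gene took different courses: the first Kcnq1 probe was lowest on the 3 BPH+ghrelin arrays (6.07 to 7.14), while the second stayed between 5.89 and 6.43 throughout.

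Probes on different sides of 0 were seen in other members too. Of the members with more than 1 passing probe, 6 of 10 had all probes on the same side of 0 in BPH against sham, 4 of 10 in BPH+ghrelin against BPH and 3 of 11 in BPH+ghrelin against sham. The differing genes were Kcng1, Kcnh2, Kcnma1 and Kcnq1 in the first comparison. These counts regard the sign alone, and some probes lay close to 0, such as those of Kcnh2 at 0.20 and -0.005 in that comparison. The share over all genes with more than 1 probe was not taken. Where these probes lie in their transcripts was not used here.

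The Kv auxiliary subunits held the gene that passed a test in both BPH against sham and BPH+ghrelin against BPH. Kcnip3, the calcium sensor also known as DREAM or calsenilin, binds Kv4 channels and can repress transcription. It read 4.47, 4.95 and 4.64 in sham, 4.07, 3.64 and 3.44 in BPH, and 4.94, 5.04 and 5.20 in BPH+ghrelin. The BPH arrays were below all others, and the ghrelin arrays overlapped the sham arrays only at the edge. Kcnip3 fell in BPH against sham by 0.98 (SE 0.20, adjusted p = 0.0360) and rose 2.54-fold with ghrelin against BPH (1.35, SE 0.20, adjusted p = 0.0250). Both use the same BPH arrays. BPH+ghrelin and sham differed by 0.37 (SE 0.20, adjusted p = 0.292). Without 1 array at a time the first was -1.14 to -0.83, past the threshold only without BPH replicate 1 or sham replicate 1, and the second was 1.20 to 1.51, past it only without BPH replicate 3. With scan time as a block they were -0.82 (adjusted p = 0.796) and 1.23 (adjusted p = 0.295). With another background correction (normexp) they were -0.16 and 0.31, and neither passed.

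In this class, 6 of 7 tested members did not overlap between BPH and sham, beside 31.3% of all genes, 5 of them lower in BPH, with a median log2 difference of -0.40. The counts were 3 of 8 in BPH+ghrelin against BPH, beside 39.2%, and 3 of 6 in BPH+ghrelin against sham, beside 30.4%. The 6 of 7 and the 3 of 8 include Kcne3, the only one of the 6 that was higher in BPH. Kcne3 entered both comparisons through the BPH arrays alone. The class was singled out after its counts were seen. Kcne2, a KCNQ1 and hERG partner of gastric and thyroid epithelium, read 6.93, 7.20 and 7.07 in sham, 6.21, 5.77 and 3.94 in BPH, and 7.08, 6.54 and 4.69 in BPH+ghrelin. All BPH arrays were below sham, and replicate 3 was the lowest of each treated group. The difference of -1.76 (SE 0.71, adjusted p = 0.165) did not pass, and was -1.08 without BPH replicate 3 and -3.23 with scan time as a block. Kcne5 read 3.45, 3.66 and 4.28 in sham, 1.504, 2.978 and 1.398 in BPH, and 0.59, 3.43 and 3.31 in BPH+ghrelin. Its probe was well above background on 2 sham arrays, 1 BPH array and 2 ghrelin arrays, so the size of its differences is poorly known. Both treated groups were below sham without overlap, at -1.83 in BPH (SE 0.77, adjusted p = 0.175) and -1.35 with ghrelin (SE 0.76, adjusted p = 0.328). With scan time as a block the first turned to 1.18 (SE 0.805), higher in BPH, and the second was -0.18. That value of the first is linked to BPH only through BPH+ghrelin replicate 1, at 0.59. The second was -1.84 to -0.43 without 1 array at a time, the value nearest 0 without BPH+ghrelin replicate 1. Kcne3, the partner of KCNQ1 in colon epithelium, was well above background on the 3 BPH arrays (2.98, 2.75 and 3.08) and on no other. It was at least 1.18-fold lower with ghrelin than in BPH, where the bound sets the dim arrays at the lowest signal well above background, and the fit gave an adjusted p of 0.147. Kcne4 differed by -0.16, -0.16 and -0.31. Kcne1 was well above background on no array.

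**Figure D3:**
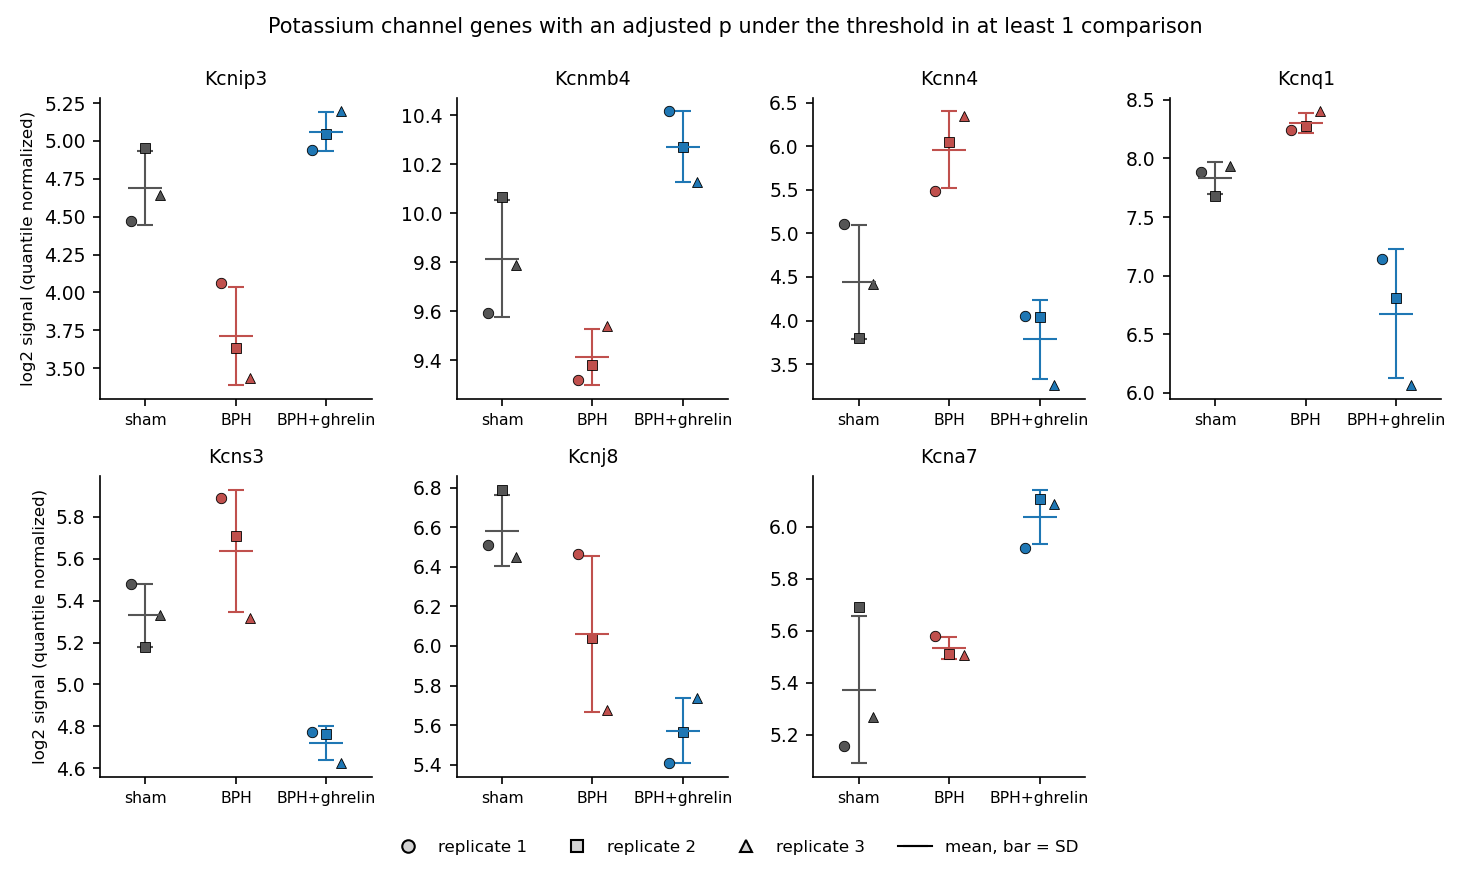
Log2 signal (vertical axis) of the 7 potassium channel genes that passed a test in at least 1 comparison, on each array; points are replicates, lines are means with SD (n = 3). The BPH+ghrelin arrays lie above the BPH arrays for Kcnip3, Kcnmb4 and Kcna7 and below them for Kcnn4, Kcnq1 and Kcns3, while those of Kcnj8 overlap.

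With normexp in place of the processed signal, which draws low values together, 3 of these 9 calls stood: Kcnmb4 (0.80) and Kcnq1 (-1.17) in BPH+ghrelin against BPH, and Kcnj8 (-0.52) in BPH+ghrelin against sham. The other 6 kept their direction but did not pass, among them Kcnn4 at -0.68, Kcns3 at -0.33, Kcnq1 against sham at -0.75 and Kcna7 at 0.27.

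The inward rectifiers include the ATP-sensitive channel of vascular and other smooth muscle, whose pore is Kcnj8 (Kir6.1) and whose sulfonylurea receptor is Abcc9. Of 15 genes, 8 were tested. Kcnj8 read 6.51, 6.79 and 6.45 in sham, 6.47, 6.04 and 5.68 in BPH, and 5.41, 5.57 and 5.74 in BPH+ghrelin. The ghrelin arrays were below all sham arrays, and BPH overlapped both. It fell 2.02-fold with ghrelin against sham (-1.01, SE 0.21, adjusted p = 0.0322). The 2 steps were -0.52 from sham to BPH (SE 0.21, adjusted p = 0.166) and -0.49 from BPH to BPH+ghrelin (SE 0.21, adjusted p = 0.234). Without 1 array at a time the difference between ghrelin and sham was -1.09 to -0.91, past the threshold only without sham replicate 1 or 2. With scan time as a block it was -0.997 (adjusted p = 0.236), and the 2 steps were -0.35 and -0.65. Abcc9 was 1.37 lower with ghrelin than in sham (SE 0.44, adjusted p = 0.107) and 1.51 lower than in BPH (SE 0.44, adjusted p = 0.121).

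Smooth muscle and vessel markers also differed between these arrays. The mean over 7 smooth muscle markers was 8.74 to 9.51 in sham, 9.02 to 9.66 in BPH and 8.42 to 8.88 in BPH+ghrelin. From sham to BPH 5 of the 7 were higher, with a median difference of 0.19. With ghrelin against sham, the comparison in which Kcnj8 fell, all 7 were lower, with a median difference of -0.40, and Myh11 passed the test. All 7 were lower with ghrelin than in BPH, with a median difference of -0.55, and Myh11, the smooth muscle myosin, passed here too (-0.96, adjusted p = 0.0160). The mean over 4 endothelial markers was 6.26 to 6.80, 6.46 to 6.80 and 5.91 to 6.15. With ghrelin against sham 3 of 3 tested were lower, and 1 of them, Pecam1, passed. Their part in the values of Kcnj8, Kcns3 and Kcnq1 was not tested.

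Kcnj1, the ROMK channel of kidney, was the Kir gene with the widest spread. It read 4.67, 7.96 and 6.35 in sham, 4.19, 4.17 and 4.52 in BPH, and 5.53, 6.06 and 6.67 in BPH+ghrelin. Sham replicates 2 and 3 were high and sham replicate 1 was close to BPH, and all ghrelin arrays were above all BPH arrays. The differences of -2.03 in BPH against sham (SE 0.71, adjusted p = 0.128) and 1.79 with ghrelin against BPH (SE 0.71, adjusted p = 0.206) did not pass, and the first was -2.87 to -1.22 without 1 array, past the threshold only without sham replicate 1 and nearest 0 without sham replicate 2. It was -1.18 with scan time as a block. Kcnj11, the Kir6.2 pore of ATP-sensitive channels in beta cells and striated muscle, was well above background on no sham array and differed by -0.07 between both BPH groups, or -0.45 with scan time as a block. Kcnj10, Kcnj15 and Kcnj16, of glia and epithelia, were well above background on no array and Kcnj2 on 1, so they were not tested.

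The two-pore channels carry the leak current that sets the resting potential. All but Kcnk15 and Kcnk9 of the 13 were tested, and none passed in any comparison by limma, while 3 of 11, 4 of 11 and 2 of 10 had an unadjusted p under 0.05, beside the shares of all genes given above. Kcnk18 (TRESK), named after its values were seen, had the lowest adjusted p of the class, at 0.0522 for 0.56 with ghrelin against sham (SE 0.14). Kcnk6 (TWIK-2) read 10.256, 9.997 and 10.055 in sham, 10.58, 10.57 and 10.64 in BPH, and 10.16, 10.26 and 10.30 in BPH+ghrelin. BPH was above both other groups without overlap, by 0.50 over sham (SE 0.12, adjusted p = 0.0537) and by 0.36 over ghrelin (-0.36 as ghrelin minus BPH, SE 0.12, adjusted p = 0.147). Kcnk5 (TASK-2), an acid-sensitive channel of kidney tubules and other epithelia, read 10.53, 10.68 and 10.65 in sham, 11.17, 11.15 and 11.13 in BPH, and 10.74, 10.38 and 10.04 in BPH+ghrelin. It too was highest on all BPH arrays, 0.53 above sham (SE 0.18, adjusted p = 0.114), and the value with ghrelin minus BPH was -0.76 (SE 0.18, adjusted p = 0.0740). With scan time as a block these were 0.013 and -0.41. With normexp as the background correction, Kcnk6 passed in BPH against sham (0.48, adjusted p = 0.0282) and Kcnk5 in BPH+ghrelin against BPH (-0.72, adjusted p = 0.0467).

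Kcnk1 (TWIK-1) was very bright, with 14.68, 14.68 and 14.67 in sham, 14.34, 14.60 and 15.09 in BPH, and 15.01, 15.02 and 15.08 in BPH+ghrelin. Ghrelin lay above sham, by 0.36 (SE 0.18, adjusted p = 0.271), and BPH spread over both. Kcnk2 (TREK-1), a mechanically gated channel of smooth muscle, differed by -0.01, 0.20 and 0.19, and its other detected probe by -1.39 in BPH against sham (SE 0.48, adjusted p = 0.124). Kcnk3 (TASK-1) differed by -0.08, -0.02 and -0.10, each with an SE of 0.14. Kcnk4 (TRAAK) read 5.51, 8.52 and 7.21 in sham, 6.01, 5.36 and 0.99 in BPH, and 6.45, 6.52 and 6.17 in BPH+ghrelin. BPH replicate 3 was not well above background, and the difference of 2.26 with ghrelin against BPH (SE 1.26, adjusted p = 0.339) was 0.69 without it.

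**Figure D4:**
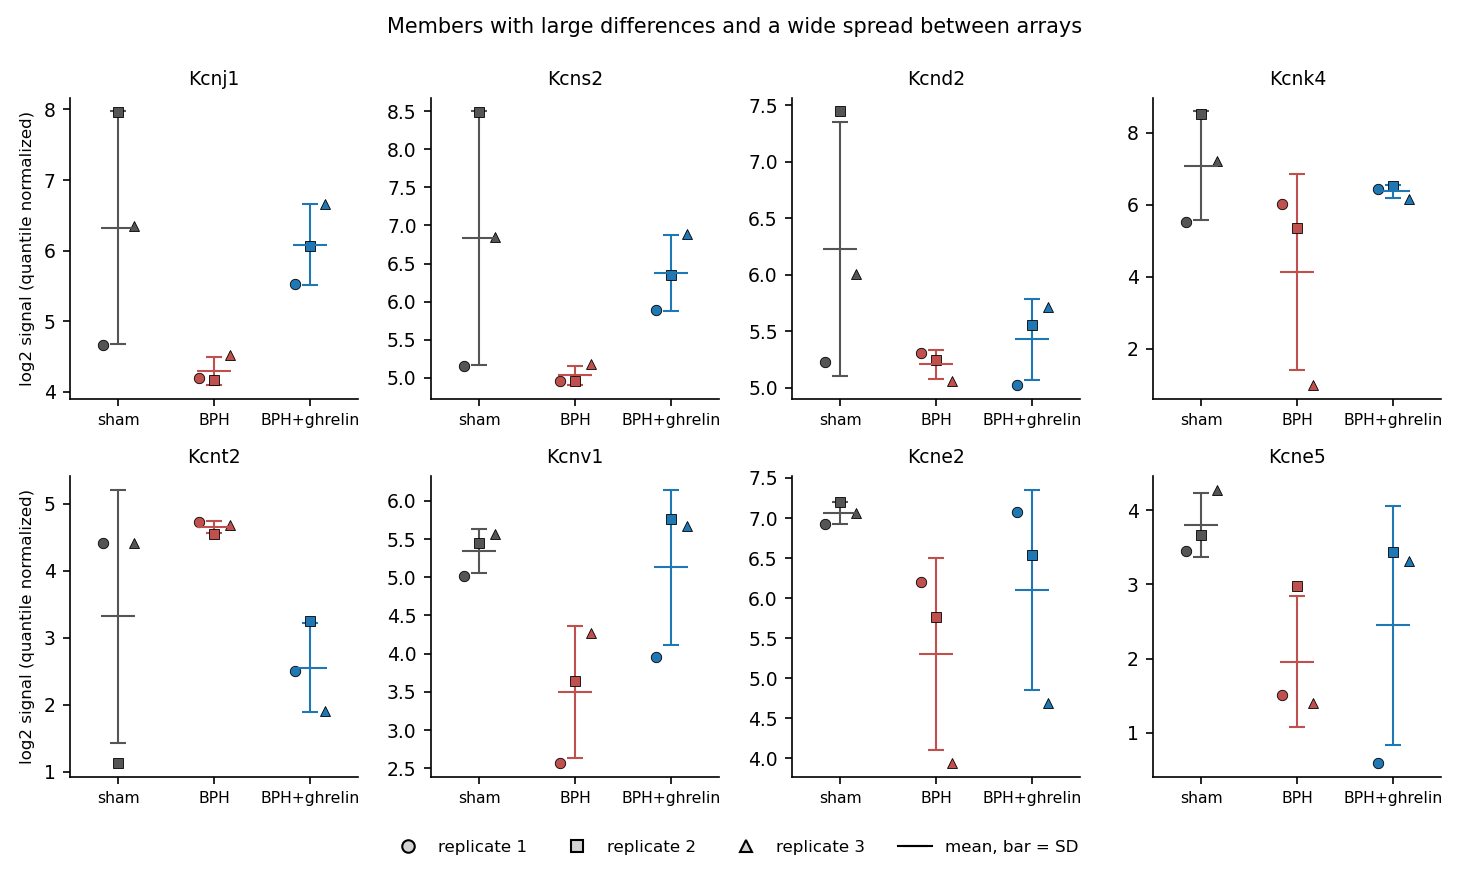
Log2 signal (vertical axis) of 8 potassium channel genes with 2-fold differences that did not pass the test, on each array; points are replicates, lines are means with SD (n = 3). Sham replicate 2 is the highest array for Kcnj1, Kcns2, Kcnd2 and Kcnk4 (7.44 to 8.52) and the lowest for Kcnt2 (1.13).

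Within sham, Kcnj1, Kcns2, Kcnd2 and Kcnk4 had replicate 1 lowest, replicate 3 between and replicate 2 highest. They were picked for this order, which is common on these arrays: over the 17858 probes above, replicate 3 was in the middle for 77.1% and replicate 2 was highest for 8430. Kcns2, a silent Kv subunit, read 5.16, 8.49 and 6.85 in sham, 4.97, 4.96 and 5.18 in BPH, and 5.90, 6.35 and 6.89 in BPH+ghrelin. The ghrelin arrays were above the BPH arrays, by 1.34 (SE 0.71, adjusted p = 0.312), or 0.86 with scan time as a block. Sham replicate 2 was the array with the lowest share of probes above background. Fat markers had the same order within sham, with a mean over 4 genes of 3.01, 6.48 and 5.29, and were at 5.92 to 6.80 in BPH and at 2.27, 5.67 and 6.36 in BPH+ghrelin. Their part in the values of these 4 genes was not tested. The range between the 3 arrays of a group had a median over the members of 0.55 in sham, 0.32 in BPH and 0.57 in BPH+ghrelin, and reached 1 or more for 18, 5 and 13 of 61.

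Genes that work with these channels were taken from lists of partners, pumps and cotransporters. None of 8 tested channel partners, which included sulfonylurea receptors and the BK gamma subunit Lrrc26, passed in any comparison by limma, with 0, 2 and 1 at an unadjusted p under 0.05 in the order of the comparisons above, where the shares of all genes at that p stand. None of 6 tested cotransporters passed either, with 1, 1 and 0. Of the pumps, 2 of 13 fell with ghrelin against sham, Fxyd6 and Atp12a, beside 6.3% of all genes. Atp12a entered that comparison through the sham arrays alone, so this count is not read further. The pump counts of the other comparisons include a gene that is not reported here, and are not given. Fxyd6, a regulator of the sodium-potassium pump, read 8.24, 8.10 and 8.18 in sham, 7.64, 7.54 and 7.44 in BPH, and 6.71, 6.36 and 6.18 in BPH+ghrelin. Its groups did not overlap, and it fell with ghrelin by 1.12 against BPH (SE 0.15, adjusted p = 0.0240) and by 1.75 against sham (SE 0.15, adjusted p = 0.000992).

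Atp12a, the proton-potassium pump of colon and of accessory sex glands, read 12.11, 11.90 and 11.96 in sham, 8.72, 7.72 and 0.79 in BPH, and 0.75, 0.76 and 1.13 in BPH+ghrelin. Every treated array was below every sham array, and no ghrelin array was well above background. It was at least 623-fold lower with ghrelin than in sham, a comparison that it entered through the sham arrays alone. Its p-value there is not given, since the filter took it in by the group where it is high. BPH minus sham was -6.24 on the log2 scale (SE 1.75, adjusted p = 0.0800). Atp12a was well above background on 5 of the 9 arrays. BPH replicate 3, at 0.79, was at the level of the ghrelin arrays, so the size of the difference between BPH and sham is poorly known. The mean of the seminal vesicle and coagulating gland markers had the same order of groups. Of the 7, 3 fell in BPH and 5 with ghrelin, both against sham, beside 4.33% and 6.3% of all genes that passed. The 5 include 1 gene that read 0.69 to 0.74 on the ghrelin arrays and entered through the sham arrays alone. In each of these comparisons 2 of the 7 were higher, without passing the test. The part of these markers in the values of Atp12a was not tested.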

How the data were processed

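Prostate RNA of 3 groups was measured on 9 one-color Agilent rat arrays. The authors deposited each scanner file, with a background-corrected processed spot intensity and quality flags of 0 or 1 (well above background, outlier, saturated), and a matrix of processed values on a log2 scale, which was used as an alternative only. Per the file headers and the values, the deposited matrix is floored at 2.32. The authors made it by quantile normalization in GeneSpring GX, and whether genes were then centred is not given in the sources used here. Control and outlier spots were left out, spots of 1 probe were averaged, and log2 intensities were quantile normalized (R 4.3.3, limma 3.58.1). Of 30356 probes, 59.3% led through the accession of the array design to a RefSeq symbol. The passing probe with the highest mean stood for a gene. Second probes were tested in a fit of all passing probes. All 3 groups entered 1 limma model (lmFit, eBayes), adjusted by Benjamini-Hochberg, with 0.05 as the threshold and no block. The number of arrays limits the precision.

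Genes were named when they passed, when they were among the 4 largest 2-fold differences per direction without overlap, or when they were on a panel with known roles in smooth muscle, epithelium or nerve. The members, the panel and the lists of markers and partners were chosen with earlier results of these data known. Arrays that share a scan time in their headers were BPH replicates 1, 2 and 3 with BPH+ghrelin replicate 1, then BPH+ghrelin replicates 2 and 3 with sham replicates 1 and 2, then sham replicate 3 alone. BPH and sham therefore never shared a scan time. The pipeline was tested on simulated data. Figures used Python 3.11.15 and matplotlib 3.10.9. A few genes of the family and of the lists are not reported here.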

Additional observations from a re-analysis of the deposited data

How the results depend on the processing

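The calls of single potassium channel genes moved with the processing. In BPH against sham 1 gene passed; 0 passed with no filter, with the 6 arrays alone, or with a block for scan time or replicate number, 2 with normexp, with probes above background on all 6 arrays, with every probe tested and with trend and robust, and 18 at an unadjusted p. In BPH+ghrelin against BPH 5 passed; 3 did with normexp, 2 with no filter, 9 with the 6 arrays alone, 0 with a scan time or replicate block or within 1 scan time, and 18 unadjusted. In BPH+ghrelin against sham 3 passed; 1 did with the 6 arrays alone, 0 with no filter, with either block or within 1 scan time, and 16 unadjusted. The counts over all genes moved as well: 10.6% passed with the 6 arrays alone in BPH+ghrelin against BPH, 2, 2 and 84 genes with the scan time block, and 243, 17 and 461 with the replicate block. The replicate numbers did not pair the arrays (correlations of deviations -0.18 to 0.38). Leaving out 1 array gave 0 to 8 calls (8 of 60 without sham replicate 1, beside 15.8% of all genes), 0 to 2 and 0 to 7 (7 of 55 without sham replicate 2, beside 1921 of 19197 genes). Scaled to the 75th percentile, which moved the median of all genes by -0.13 in BPH against sham and by -0.04 in BPH+ghrelin against sham, the 3 calls with ghrelin against sham were all lower (Kcnj8, Kcnq1 and Kcns3), in place of 1 higher and 2 lower.

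The 9, 9 and 3 genes at 2-fold became 17, 18 and 15 at 1.5-fold, 1, 1 and 0 with normexp and 4 and 4 with probes above background on all 6 arrays, 6 against sham with ghrelin and no filter, and 6 to 11, 9 to 11 and 2 to 9 without 1 array. The medians of -0.02, -0.01 and -0.13 were -0.25 by percentile scaling and -0.11 with all 6 arrays above background in BPH against sham, -0.022 with normexp in BPH+ghrelin against sham, and -0.129 to 0.089, -0.012 to 0.076 and -0.224 to 0.017 without 1 array. With scan time as a block, many values of single genes moved. In BPH against sham Kcnv1 turned to 0.023, Kcne5 to 1.18, Kcnmb1 to -0.44, Kcnmb3 to 0.62, Kcnn3 to 0.30, Kcnq1 to -0.18, Kcnk1 to 0.032 and Kcnk3 to 0.15, Kcnk5 came to 0.013, Kcnk2 to -0.98 and Kcnma1 to 0.97. Kcnd2 turned to -0.18 and Kcnma1 came to 0.037 in BPH+ghrelin against BPH, and Kcnk2 to -0.21 in BPH+ghrelin against sham. The causes were not tested.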
